A study of Homo sapiens with 4 samples.

Results

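The genes described here build the autophagosome or carry the mTORC1 signal that restrains it. They were chosen by name from a list of 40 gene symbols, and 38 of these occur in the TPM tables, out of 20457 symbols in each table. TPM is transcript abundance corrected for gene length and scaled to the same sum in every library. The 38 genes comprise 25 autophagy genes and 13 genes of mTORC1 signalling, and all 38 passed the filter on low values that left 14208 genes for testing. The other two listed symbols, *ATG101* and *CASTOR1*, appear in the tables only under the older symbols C12orf44 and GATSL3. Their values are given separately and enter no count unless stated.

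RNA was sequenced from HEK293 cells, an established human embryonic kidney line, grown in DMEM with fetal bovine serum. The control cells (siControl, labelled wild type) received a negative control siRNA, and the treated cells (siCNOT4) received siRNA against *CNOT4*, which encodes a RING-type ubiquitin ligase linked to CCR4-NOT, the main complex that shortens poly(A) tails. Both siRNAs were applied at 10 nM for 72 h, and each group has 2 libraries of poly(A) RNA. The study asks what CNOT4 contributes to the way codon choice sets expression levels. The labels do not say whether the 2 libraries of a group came from separate cultures, so p-values measure only the spread between these libraries. No marker list for HEK293 cells was used, so the identity of the line was not checked.

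Autophagy encloses cytoplasm in a double membrane and delivers it to the lysosome. The ULK1 kinase complex starts the process, a class III PI3-kinase makes the lipid PI3P on the forming membrane, and WIPI proteins read that lipid. Ubiquitin-like enzymes then attach ATG8 proteins to the membrane, where they hold cargo receptors. mTORC1 is a kinase complex on the lysosome that the Rag GTPases recruit when amino acids are plentiful and that RHEB activates. The TSC complex turns RHEB off, and active mTORC1 phosphorylates ULK1 and TFEB, so that autophagy and lysosome genes are held back in fed cells.

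The targeted mRNA was lower in both siCNOT4 libraries. *CNOT4* had 6.43 and 4.73 TPM in siControl and 3.38 and 3.81 TPM in siCNOT4, a log2 fold change of -0.51 on the log2(TPM + 1) scale (limma adjusted p 0.184). It passed the test after TMM scaling (-0.95, limma adjusted p 0.0359). The libraries also differed in general. The median log2 fold change of all 14208 tested genes was 0.50, with 81.2% of genes positive, and siControl replicate 2 was below siControl replicate 1 in 79.9% of genes. Fold changes below are not centred on this median, so a value of 0.50 is that of the median gene. Steps in the low TPM values gave approximate depths of 33300000 and 32500000 reads in siControl and 34500000 and 34000000 in siCNOT4. At these depths *TFEB* had about 175 reads in its lowest library, the fewest of the 38 genes.

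In siCNOT4, 8 of the 38 genes rose and 1 fell (limma, adjusted p under 0.05). The background over all tested genes was 11.3% higher and 1.30% lower, 12.6% in all. At an unadjusted p under 0.05, which 42.0% of all tested genes reached, 26 of the 38 were higher and 1 lower. That share was computed only for TPM as deposited with every library kept, so unadjusted counts from other fits have no background here. *BECN1*, *PIK3C3*, *GABARAPL2*, *SQSTM1*, *NBR1*, *OPTN*, *MTOR* and *RRAGA* rose, and *MLST8* fell. Both siCNOT4 libraries were above both siControl libraries in 34 of the 38 genes, against 66.4% of all tested genes, and below them in 1, against 10.6%. No member was called higher by limma when either siCNOT4 library was left out, so the 8 increases lost their call. *MLST8* was still called lower in both fits. Without siControl replicate 1, 35 were called higher, and without siControl replicate 2, 29 were. The backgrounds in these fits were 3.09% higher and 0.260% lower without siCNOT4 replicate 1, 2.91% and 0.260% without siCNOT4 replicate 2, 70.9% and 8.73% without siControl replicate 1, and 47.2% and 10.3% without siControl replicate 2. A pseudocount of 0.1 left 4 higher and 1 lower (3.36% and 0.563%), no filter on low values 1 and 1 (4.29% and 0.309%), a mean TPM of at least 5 likewise 1 and 1 (0.957% and 0.333%), and the replicate number as a block gave 17 and 1 (23.5% and 2.20%).

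The division of calls between higher and lower depended on scaling. After TMM scaling (trimmed mean of M values), which centres the genes, 632 of all tested genes were called higher and 615 lower, against 1608 and 184 for TPM as deposited. Among the 38 genes, *MTOR* and *PIK3C3* were then called higher and *MLST8* lower, with backgrounds of 4.45% and 4.33%. Quantile normalization called 10 of the 38 higher and 1 lower (backgrounds 7.11% and 8.23%), and removing each library's trend with transcript length and GC content gave 8 higher and 2 lower (11.9% and 13.5%). No member called for TPM as deposited was called in the opposite direction in these fits. The sign changed in at least 1 of the 3 scalings for 14 of the 38, none of them called for TPM as deposited: *ULK1*, *ULK2*, *ATG13*, *WIPI2*, *ATG3*, *ATG5*, *ATG12*, *MAP1LC3B*, *GABARAP*, *GABARAPL1*, *TFEB*, *AKT1S1*, *RHEB* and *LAMTOR1*.

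**Figure D1:**
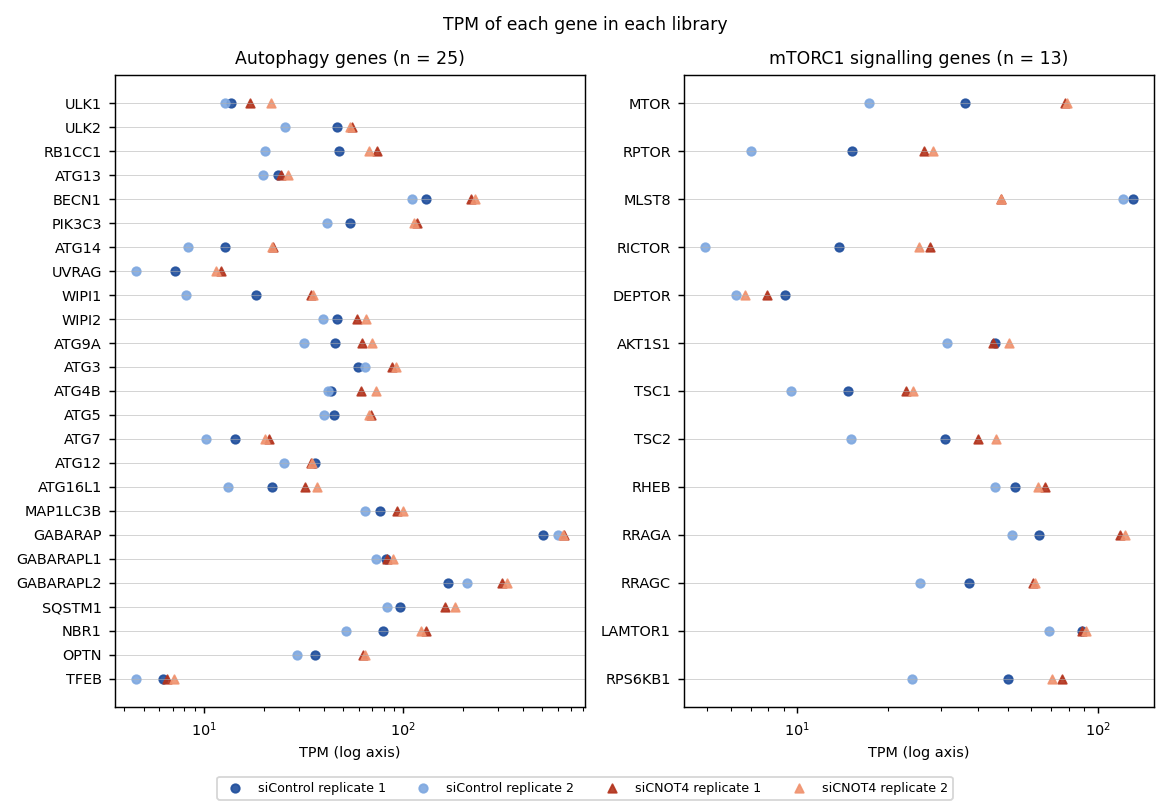
TPM of the 25 autophagy genes (left) and the 13 mTORC1 signalling genes (right) in each of the 4 libraries, on a log axis. Circles are siControl and triangles siCNOT4 libraries. The triangles lie to the right of both circles in 34 genes and to the left of both in *MLST8*.

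The mTOR complexes held both the largest increase and the only called decrease. *MLST8* encodes the small WD-repeat protein that binds the mTOR kinase domain in both mTORC1 and mTORC2. Both controls were high, at 131 and 121 TPM, and siCNOT4 had 47.5 and 47.6 TPM. The siCNOT4 libraries nearly coincided, far below both controls. The fold change was -1.38 (SE 0.17, limma adjusted p 0.0227), or -1.88 relative to the median of all genes, and 0.211% of tested genes had a lower value. *MLST8* was called lower in every alternative fit, with values from -1.93 after TMM scaling to -1.33 without siControl replicate 1.

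*MTOR*, the kinase itself, moved the other way. The controls had 36.0 and 17.3 TPM and siCNOT4 had 77.8 and 79.0 TPM, so the siControl libraries differed about as much from each other as the nearest pair of libraries across groups did. The fold change was 1.61 (SE 0.34, limma adjusted p 0.0423), 1.11 above the median of all genes. After TMM scaling it was 1.08 (limma adjusted p 0.0492) and with length and GC trends removed 0.92 (limma adjusted p 0.0137). Without siControl replicate 2 it was 1.10. With a pseudocount of 0.1 *MTOR* was not called (limma adjusted p 0.0595). Nor was it called with no filter on low values (limma adjusted p 0.0791) or at a mean TPM of at least 5 (limma adjusted p 0.0621). The 1 increase still called under either of these filters was that of *PIK3C3*.

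*RPTOR*, the mTORC1 subunit that binds substrates, had 15.1 and 7.01 TPM in siControl and 26.3 and 28.2 TPM in siCNOT4. *RICTOR*, which defines mTORC2, had 13.8 and 4.93 against 27.7 and 25.3 TPM. Neither passed the test (limma adjusted p 0.0625 and 0.0636), with fold changes of 1.31 and 1.55. In both genes siCNOT4 lay above the controls without overlap, as in 66.4% of all tested genes. Removing length and GC trends left 0.78 for *RPTOR* (limma adjusted p 0.0271) and 0.56 for *RICTOR* (0.0554). The 2 mTORC1 inhibitors did not pass the test (limma adjusted p 0.903 and 0.335). *DEPTOR* had 9.12 and 6.25 against 7.92 and 6.67 TPM, and *AKT1S1*, which encodes PRAS40, had 45.6 and 31.5 against 44.7 and 50.4 TPM. Both overlapped between groups for TPM as deposited. Their fold changes were -0.05 (SE 0.30) and 0.32 (SE 0.24). *DEPTOR* had -0.53 after TMM scaling (limma adjusted p 0.0961) and -0.67 after quantile normalization (limma adjusted p 0.0528). With length and GC trends removed it had -0.51 (limma adjusted p 0.054). In the same order *AKT1S1* had -0.22, -0.13 and -0.07, and neither gene was called in these fits.

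A TPM ratio between genes of one library does not change when the library is multiplied by a single factor, as in TMM scaling, but quantile normalization and trend removal can change it. The ratio of *MTOR* to *MLST8* was 0.275 and 0.143 in the controls, and with siCNOT4 it was 1.64 and 1.66. *MLST8* was thus the more abundant of the pair in both controls and the less abundant in both siCNOT4 libraries. The ratio was 7.88 times higher in siCNOT4 by group means, and between 5.95 and 11.6 times over the pairings of libraries. For *RPTOR* over *MLST8* the factor was 6.61, and for *RICTOR* over *MLST8* it was 7.63. With length and GC trends removed, the differences of the fitted log2 fold changes gave smaller factors, 5.23 for *MTOR*, 4.75 for *RPTOR* and 4.06 for *RICTOR*, each over *MLST8*. These ratios were chosen after the values were seen and have no test. In the annotation, *MLST8* shares exonic sequence with *BRICD5* on the opposite strand, which had 3.37, 5.14, 3.07 and 3.82 TPM in the same library order (siControl, then siCNOT4). Of the other called genes, *BECN1* shares exonic sequence in the same way with *PSME3* and *CNTD1*, *SQSTM1* with *MGAT4B* and *MRNIP*, *NBR1* with *AC060780.1*, *OPTN* with *CCDC3* and *MTOR* with *MTOR-AS1*. Whether the counting used strand is not given in the sources used here.

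**Figure D2:**
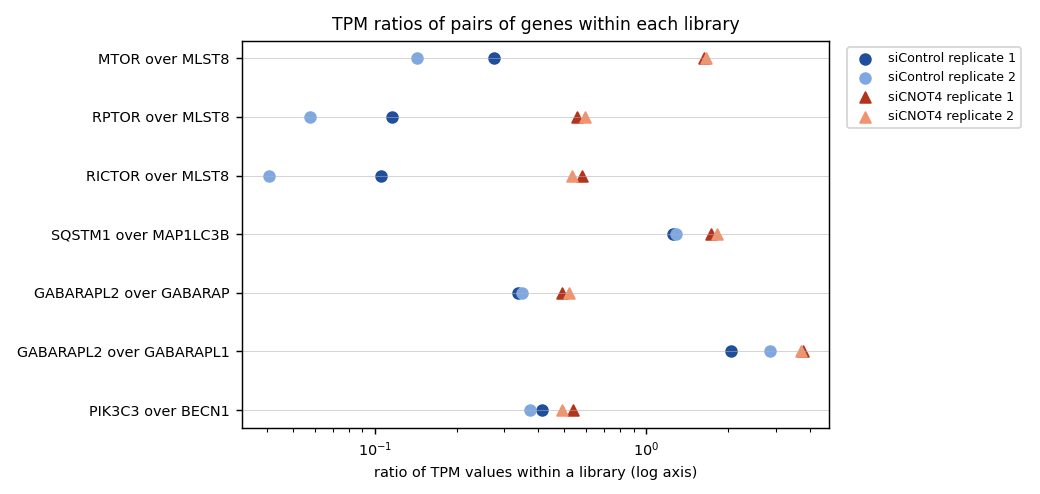
Ratios of TPM values within each library for 7 pairs of genes, on a log axis. Circles are siControl and triangles siCNOT4 libraries. The ratios over *MLST8* are separated most between the groups, with *MTOR* over *MLST8* at 1.64 and 1.66 in siCNOT4.

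The TSC complex and RHEB gave no call (0 of 3 by limma). An unadjusted limma p under 0.05 was reached by 2, against 42.0% of all tested genes. *TSC2*, which carries the GTPase-activating domain that acts on RHEB, had 30.9 and 15.0 TPM in siControl and 40 and 45.7 TPM in siCNOT4 (fold change 0.95, SE 0.35, limma adjusted p 0.0983). Its exons overlap *NTHL1* on the opposite strand, which fell (log2 fold change -1.03, limma adjusted p 0.0451). *TSC1*, the stabilizing partner, had 14.7 and 9.51 against 22.9 and 24.2 TPM, and *RHEB* 53.0 and 45.4 against 66.4 and 63.3 TPM. In all 3 genes the siCNOT4 libraries were above the controls, as in 66.4% of all tested genes. Relative to the median of all genes, the fold changes were 0.43 for *TSC1*, 0.45 for *TSC2* and -0.10 for *RHEB*.

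Among the lysosomal recruiters of mTORC1, *RRAGA* rose. This Rag GTPase had 63.8 and 51.8 TPM in siControl and 118 and 123 TPM in siCNOT4, a fold change of 1.05 (SE 0.18, limma adjusted p 0.0294). After TMM scaling it was 0.51 and lost its call (limma adjusted p 0.0803). *RRAGA* was called after quantile normalization (0.75, limma adjusted p 0.0276) and with length and GC trends removed (0.83, limma adjusted p 0.0162). *RRAGA* and *RRAGB* are close paralogs, so the division of reads between them is uncertain. Its dimer partner *RRAGC* had 37.2 and 25.5 against 60.9 and 61.6 TPM, a fold change of 0.97 with a limma adjusted p of 0.0503, just above the threshold. *LAMTOR1*, which anchors the Ragulator scaffold to the lysosome, had 88.2 and 68.6 against 88.6 and 91.2 TPM, and its fold change of 0.21 was 0.29 below the median of all genes. *CASTOR1*, an arginine sensor read here from GATSL3, had 2.52 and 1.80 against 4.90 and 5.26 TPM (0.95, limma adjusted p 0.0522). *RPS6KB1*, the S6 kinase that mTORC1 phosphorylates, had 50.0 and 24.1 against 75.8 and 70.5 TPM (1.05, limma adjusted p 0.0780).

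Of the 25 autophagy genes, 6 rose and 0 fell at a limma adjusted p under 0.05, with 18 higher and 0 lower at an unadjusted p under 0.05. The background was 11.3% higher and 1.30% lower, and 42.0% of all tested genes reached an unadjusted limma p under 0.05. After TMM scaling 1 of the 25 was called higher and 0 lower (limma, 7 higher and 0 lower at an unadjusted p under 0.05), with backgrounds of 4.45% and 4.33%. The share of all tested genes at the unadjusted threshold was not computed after TMM scaling. The 3 cargo receptors among these 25, which link ubiquitinated or other cargo to ATG8 proteins, all rose. Receptors outside the 25 are given below with the further autophagy genes. *SQSTM1*, also called p62, had 96.7 and 83.0 TPM in siControl and 162 and 183 TPM in siCNOT4. Its fold change was 0.94 (SE 0.17, limma adjusted p 0.0315). *NBR1* had 79.1 and 51.7 against 131 and 124 TPM, a fold change of 0.98 (SE 0.23, limma adjusted p 0.0475). *OPTN* had 36.3 and 29.3 against 63.1 and 64.1 TPM, a fold change of 0.94 (SE 0.20, limma adjusted p 0.0433). The 3 receptors lay 0.44 to 0.48 above the median of all genes, and differences between them were not tested. After TMM scaling none of them was called, with fold changes from 0.39 to 0.44 and 2 of 3 at an unadjusted p under 0.05. With length and GC trends removed *SQSTM1* was (0.58, limma adjusted p 0.0180), and *NBR1* and *OPTN* had 0.32 and 0.36 with no call.

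The class III PI3-kinase complex makes PI3P, and 2 of its 4 genes among the 38 rose. The background over all tested genes was 11.3% higher and 1.30% lower. *PIK3C3*, the lipid kinase VPS34, had 54.1 and 41.4 TPM in siControl and 118 and 113 TPM in siCNOT4, a fold change of 1.27 (SE 0.20, limma adjusted p 0.0259). *BECN1*, its scaffold Beclin 1, had 131 and 111 against 219 and 230 TPM, a fold change of 0.89 (SE 0.16, limma adjusted p 0.0306). In both genes the nearest libraries of the 2 groups lay further apart than the replicates. *ATG14*, the subunit that directs the complex to autophagosomes, had 12.8 and 8.31 against 22.2 and 22.1 TPM. *UVRAG*, which replaces ATG14 in the endosomal form, had 7.20 and 4.59 against 12.3 and 11.5 TPM. Their fold changes of 1.03 and 0.93 did not pass (limma adjusted p 0.0635 and 0.0801), so all 4 genes had values between 0.89 and 1.27. *PIK3C3* was called after TMM scaling (0.73, limma adjusted p 0.0464) but not with length and GC trends removed (0.32, limma adjusted p 0.244), and *BECN1* the reverse (0.34, limma adjusted p 0.194, and 0.51, limma adjusted p 0.0233).

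The ATG8 proteins are the ubiquitin-like tags of the autophagosome membrane. Against a background of 11.3% higher and 1.30% lower over all tested genes, *GABARAPL2* was the 1 of 4 that rose. It had 169 and 209 TPM in siControl and 314 and 331 TPM in siCNOT4, a fold change of 0.77 (SE 0.16, limma adjusted p 0.0402). After TMM scaling this was 0.23 and no longer called (limma adjusted p 0.583). *GABARAPL2* was called after quantile normalization (0.69, limma adjusted p 0.0399) and with length and GC trends removed (0.53, limma adjusted p 0.0361). *GABARAP*, the most abundant of the 38 genes, had 502 and 600 against 641 and 637 TPM. *GABARAPL1* had 82.5 and 73.4 against 83.1 and 89.3 TPM, and *MAP1LC3B*, which encodes LC3B, 77.0 and 64.6 against 93.2 and 100 TPM. These 3 had fold changes of 0.22, 0.14 and 0.45, all below the median of all genes. The ratio of *GABARAPL2* to *GABARAP* was 0.337 and 0.348 in siControl against 0.489 and 0.520 in siCNOT4, and that of *SQSTM1* to *MAP1LC3B* was 1.26 and 1.29 against 1.74 and 1.83. Members of this family have processed pseudogenes and close paralogs, so some of their reads are uncertain in origin. The sign of *GABARAPL1* depended on scaling: it was -0.40 after TMM scaling, -0.18 after quantile normalization and -0.23 with length and GC trends removed, with no call in any of the 3.

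The ULK1 complex gave no call (0 of 4 by limma). Against 42.0% of all tested genes, 1 of the 4 reached an unadjusted limma p under 0.05. That gene, *RB1CC1*, encodes the scaffold FIP200 and had 47.6 and 20.4 TPM in siControl and 74.4 and 67.6 TPM in siCNOT4. Its fold change was 1.16 (SE 0.38, limma adjusted p 0.0806). The kinases *ULK1* (13.6 and 12.7 against 17.1 and 21.7 TPM) and *ULK2* (46.5 and 25.7 against 55.3 and 54.0 TPM) had fold changes of 0.51 and 0.64, near the median of all genes. The adaptor *ATG13* had 23.5 and 19.9 against 24.4 and 26.6 TPM (0.23), and its partner *ATG101*, read from C12orf44, had 46.5 and 55.1 against 60.6 and 70.2 TPM (0.36).

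Of the PI3P readers and the lipid scramblase ATG9, 0 of 3 passed by limma. All 3 reached an unadjusted limma p under 0.05, against 42.0% of all tested genes. *WIPI1* had 18.3 and 8.13 TPM in siControl and 34.5 and 35.2 TPM in siCNOT4, the highest fold change of the autophagy genes (1.43, SE 0.38, limma adjusted p 0.0569). The 2 control values differed by 1.08 on the log2(TPM + 1) scale. *WIPI2*, which recruits ATG16L1, had 46.7 and 39.8 against 58.6 and 65.4 TPM (0.51), and *ATG9A* had 45.3 and 31.9 against 62.5 and 69.9 TPM (0.78). Quantile normalization called *WIPI1* (0.90, limma adjusted p 0.0426).

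In the conjugation machinery, 0 of 6 genes passed by limma. An unadjusted limma p under 0.05 was reached by 5 of the 6, against 42.0% of all tested genes. *ATG16L1*, which places the ATG12 and ATG5 conjugate on the membrane, had 21.9 and 13.3 TPM in siControl and 32.1 and 36.9 TPM in siCNOT4 (0.97, SE 0.30, limma adjusted p 0.0704). The enzymes *ATG7* (E1-like), *ATG3* (E2-like) and *ATG4B* (protease) and the conjugate member *ATG5* had fold changes from 0.53 to 0.73. *ATG12* stood apart: it had 36.3 and 25.2 against 34.4 and 35.1 TPM, overlapped between groups, and its fold change was 0.19. Removing length and GC trends gave *ATG12* a value of -0.61 (limma adjusted p 0.0216), whereas without siControl replicate 1 it was called higher.

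**Figure D3:**
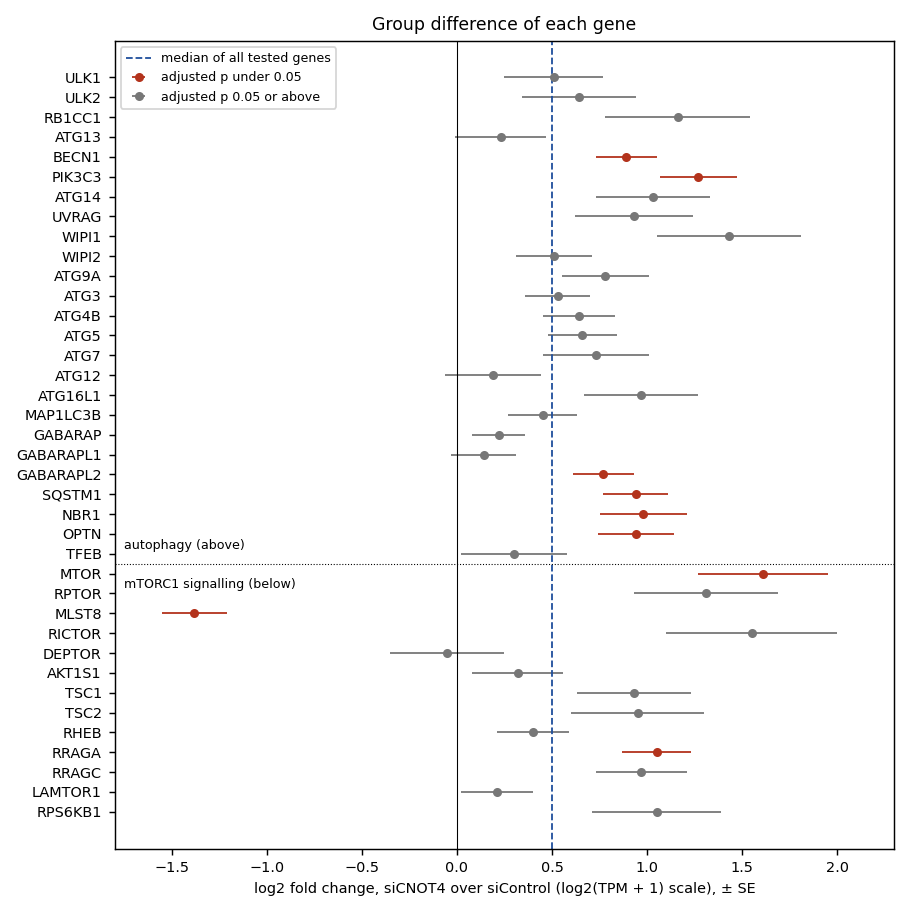
Log2 fold change of siCNOT4 over siControl for each of the 38 genes, with SE bars, on the log2(TPM + 1) scale. Red marks a limma adjusted p under 0.05 and the dashed line is the median of all tested genes, 0.50. *MLST8* lies at -1.38 and *MTOR* at 1.61, the extremes of the 38.

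*TFEB*, the transcription factor of lysosome and autophagy genes that mTORC1 keeps in the cytoplasm, had 6.26 and 4.57 TPM in siControl and 6.55 and 7.14 TPM in siCNOT4. Its fold change of 0.30 (SE 0.28, limma adjusted p 0.418) was below the median of all genes, and it was -0.17 after TMM scaling, -0.33 after quantile normalization and -0.01 with length and GC trends removed. TFEB binds the CLEAR element, whose core was searched as TCACGTGA on both strands of promoters from 250 bases before to 50 bases after the start (RefSeq, GRCh38.p14, 1 promoter per symbol). Of the 40 listed genes 34 had a promoter in that table, and 2 of the 34 (5.88%) held the core, against 1.04% of all 27305 promoters. The shorter E-box CACGTG, which lies inside it, was in 5 of 34 (14.7%) against 7.43%. Of the 9 called genes 7 had a promoter, and 0 of 7 held either sequence. The promoters with the core are those of *ATG3* (chr3:112561913-112562212, minus strand) and *TSC2* (chr16:2047735-2048034, plus strand), shown because they are the only matches, with the core in capitals.
ATG3: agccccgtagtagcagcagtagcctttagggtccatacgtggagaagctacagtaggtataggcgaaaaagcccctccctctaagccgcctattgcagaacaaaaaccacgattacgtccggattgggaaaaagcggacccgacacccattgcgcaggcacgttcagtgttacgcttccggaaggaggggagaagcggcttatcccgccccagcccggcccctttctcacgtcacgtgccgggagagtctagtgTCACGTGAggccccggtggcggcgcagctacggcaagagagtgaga
TSC2: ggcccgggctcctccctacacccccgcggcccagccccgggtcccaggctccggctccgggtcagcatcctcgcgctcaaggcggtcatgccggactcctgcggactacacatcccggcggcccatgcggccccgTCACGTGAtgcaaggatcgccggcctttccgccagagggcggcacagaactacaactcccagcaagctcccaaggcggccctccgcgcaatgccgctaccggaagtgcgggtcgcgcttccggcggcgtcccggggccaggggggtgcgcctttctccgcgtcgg
A match describes the letters and is not a measured binding site. Neither gene passed the test: *ATG3* had 59.6 and 64.5 against 87.9 and 92.0 TPM (0.53, limma adjusted p 0.0742), and *TSC2* is given above.

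Set side by side, the autophagy genes had a median log2 fold change of 0.73 and the mTORC1 signalling genes one of 0.95, against 0.50 for all tested genes. The autophagy genes ranged from 0.14 to 1.43 and were all positive, with 19 of 25 above the median of all genes. The mTORC1 signalling genes ranged more widely, from -1.38 to 1.61, with 11 of 13 positive and 8 of 13 above that median. Of all tested genes 81.2% were positive. Calls were 6 higher and 0 lower of 25 against 2 higher and 1 lower of 13, with backgrounds of 11.3% and 1.30%. After TMM scaling they were 1 and 0 of 25 against 1 and 1 of 13, with backgrounds of 4.45% and 4.33%. The difference between the 2 medians was -0.22. It was 0.04 without siControl replicate 2 and 0.05 with length and GC trends removed, so its direction changed with both. Leaving out *RICTOR*, *RPS6KB1* and *TFEB*, whose place in the 2 sets is arguable, gave -0.18.

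Transcript length moved with these values. Over the 38 genes the fold change had a Spearman rho of 0.496 with transcript length, and the difference between siControl replicates 1 and 2 had one of 0.591. Over the 13738 tested genes with a length these were 0.383 and 0.619. The correlations are across genes that share the same 4 libraries and have no test. The 10 longest of the 38, from 5310 to 9543 nt, had a median fold change of 1.10 and a median difference between the siControl replicates of 1.00. They are *MTOR*, *RPTOR*, *RICTOR*, *TSC1*, *TSC2*, *RPS6KB1*, *PIK3C3*, *RB1CC1*, *ULK1* and *ULK2*, with fold changes from 0.51 (*ULK1*) to 1.61 (*MTOR*). The 10 shortest, from 1002 to 2569 nt, had medians of 0.31 and 0.22, and their fold changes ranged from -1.38 (*MLST8*) to 1.43 (*WIPI1*). With length and GC trends removed the medians of the fold change were 0.29 and 0.06. In siControl replicate 2, 35 of the 38 genes were lower than in replicate 1, all but *ATG3*, *GABARAP* and *GABARAPL2*, while the median difference between the siCNOT4 replicates was -0.04. The part of length in the fold changes was not tested beyond these values.

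**Figure D4:**
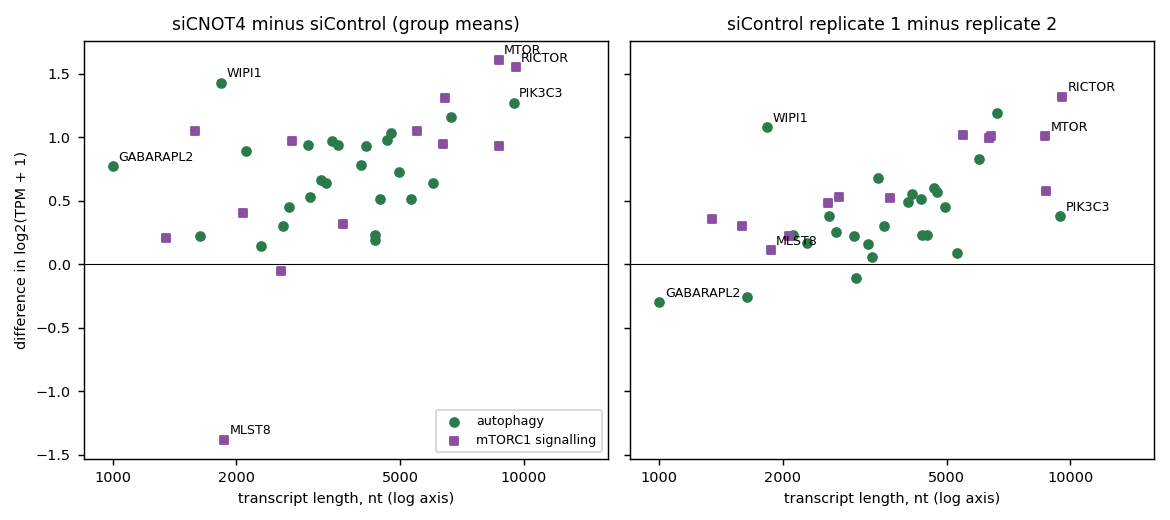
Difference in log2(TPM + 1) against transcript length (log axis) for the 38 genes, between the groups (left) and between the siControl replicates (right). *RICTOR* and *MTOR* are high in both panels, whereas *MLST8* differs by -1.38 between groups and by 0.11 between the siControl replicates.

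Other genes of the 2 pathways were read from lists. Of 34 tested further autophagy genes, 4 rose and 0 fell by limma (18 higher and 0 lower at an unadjusted p under 0.05), against a background of 11.3% and 1.30%, and the median fold change was 0.71. After TMM scaling 2 rose and 1 fell, with backgrounds of 4.45% and 4.33%. *EPG5*, a tether for fusion with the lysosome, had 8.70 and 3.81 against 21.0 and 21.2 TPM (1.69, limma adjusted p 0.0451). *ZFYVE1*, whose product DFCP1 marks PI3P-rich sites of autophagosome formation, had 8.63 and 5.03 against 21.3 and 24.1 TPM (1.63, limma adjusted p 0.0372). *PIK3R4*, the VPS15 subunit of the PIK3C3 complex, had 17.1 and 8.49 against 34.4 and 34.4 TPM (1.44, limma adjusted p 0.0492). This was the same direction as *PIK3C3* and *BECN1*. *NRBF2*, also a subunit of that complex, went the other way, with 30.2 and 21.8 against 19.45 and 20.7 TPM (-0.34, limma adjusted p 0.332). It was the 1 gene of this list that fell after TMM scaling (-0.87, limma adjusted p 0.0356). *FUNDC1*, a mitophagy receptor, had 82.2 and 99.8 against 148 and 146 TPM (0.69, limma adjusted p 0.0494), but 0.15 after TMM scaling (limma adjusted p 0.711). The receptors *CALCOCO2* (0.71, limma adjusted p 0.0571), *BNIP3* (0.72, 0.0572), *TOLLIP* (0.66, 0.112), *TAX1BP1* (0.34, 0.252) and *BNIP3L* (-0.01, 0.976) of this list did not pass. With length and GC trends removed *BNIP3L* was called lower (-0.73, limma adjusted p 0.015).

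Of 41 tested further mTORC1 genes, 5 rose and 2 fell by limma, against a background of 11.3% and 1.30%, and the median fold change of 0.47 was close to that of all genes. The decreases were the larger. *EIF4EBP1*, a translation repressor that mTORC1 phosphorylates, had 409 and 501 TPM in siControl and 32.5 and 30.9 TPM in siCNOT4 (-3.80, limma adjusted p 0.00534). *DDIT4*, which encodes REDD1, a stress-induced inhibitor of mTORC1 acting through TSC2, had 385 and 331 against 132 and 109 TPM (-1.57, limma adjusted p 0.0227). Those that rose were *RHEBL1* (1.38), the KICSTOR subunit *KPTN* (1.21), *DDIT4L* (1.15), the mTOR assembly factor *TTI2* (1.13) and *RRAGD* (0.79). *TELO2*, the partner of TTI2, had 23.7 and 23.0 against 13.4 and 16.2 TPM (-0.63, limma adjusted p 0.111), and *TTI1* had 0.58 (0.213). After TMM scaling 0 rose and 4 fell in this list (limma, 9 higher and 9 lower at an unadjusted p under 0.05), with backgrounds of 4.45% and 4.33%. For the unadjusted counts the share of all tested genes was not computed. *TELO2* was among those that fell (-1.15, limma adjusted p 0.0383).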

How the data were processed

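The authors deposited 1 table of TPM per library. Per the file headers the values are TPM, and they sum to 1000000. Per the submitters' processing notes FastQC 0.11.2, STAR 2.5.3a, featureCounts and the build hg19 were named; the annotation, gene lengths and strand setting are not given in the sources used here. Per the labels' protocols the libraries were stranded and poly(A)-selected.

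From the tables, log2(TPM + 1) was computed, genes averaging at least 1 TPM over the libraries were kept, and groups taken from sample titles (2 libraries each) were compared with limma 3.58.1 in R 4.3.3 (lmFit, eBayes with trend, no covariates, Benjamini-Hochberg over 14208 genes, threshold 0.05). The pseudocount understates changes of low genes. The fit was checked on simulated data. Depth was estimated from steps in low values and GENCODE 29 lengths (longest coding transcript), which 96.7% of tested genes had; counting error alone is covered by such depths. Older symbols were matched through RefSeq.

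Genes given in full were those with an adjusted p under 0.05, the member of each role farthest from the median of all genes, up to 4 genes per direction of each other list, and *CNOT4*. A gene of the lysosome list that meets this rule is not reported here. The members and lists were chosen with earlier results of these data known. Alternatives were a pseudocount of 0.1, other filters, TMM scaling, quantile normalization, removal of length and GC trends (splines with 4 degrees of freedom), a replicate block, and leaving out each library.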

Additional observations from a re-analysis of the deposited data

How the results depend on the processing

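With 2 libraries per group, calls rested on the spread between replicates, and leaving out 1 library leaves a lone library that is assumed to vary like the other group. The count of all called genes (1792) was 558 with a pseudocount of 0.1, 908 with no filter, 147 at a mean TPM of at least 5 and 3493 with length and GC trends removed, and ranged from 450 to 11311 when a library was left out. Members higher (8) were 4, 1, 1 and, after TMM scaling, 2 (background 4.45%), and ranged from 0 to 35 without a library; members lower (1) were 2 with trends removed and 1 without any library. Other autophagy calls (4) were 0 with a pseudocount of 0.1, no filter or a mean TPM of at least 5, 11 with trends removed and 0 to 28 without a library. Other mTORC1 calls (7) were 3, 4, 2, 4 after TMM scaling, 12 with trends removed and 2 to 33 without a library. Lysosome calls (17) were 7, 5, 4 and, after TMM scaling, 5. Of all tested genes, 3.36% were called higher and 0.563% lower with a pseudocount of 0.1. These shares were 4.29% and 0.309% with no filter and 0.957% and 0.333% at a mean TPM of at least 5. They were 4.45% and 4.33% after TMM scaling and 11.9% and 13.5% with trends removed. The filter rows also differ in how many genes were tested. The cause of the shifts, in these rows and in the others, was not tested.

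The autophagy median (0.73) was 0.22 after TMM scaling, 0.31 after quantile normalization and 0.26 with trends removed, and 0.58 to 0.96 without a library. The mTORC1 signalling median (0.95) was 0.42, 0.45 and 0.21 in the same order and 0.54 to 1.22 without a library. Their difference (-0.22) was -0.14 after quantile normalization and 0.05 with trends removed, and ranged from -0.27 to 0.04 without a library. *CNOT4* (-0.51) was -0.95, -1.15 and -1.30 under TMM scaling, quantile normalization and trend removal, each called, and -0.70 to -0.32 without a library. *GABARAPL1* (0.14) was -0.40, -0.18 and -0.23, and *TFEB* (0.30) was -0.17, -0.33 and -0.01, in that order, none called. *CNOT4* was left out by the mean TPM minimum of 5.

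With the replicate number as a block, 3655 genes, 17 members higher (background 23.5%), 11 other autophagy and 15 other mTORC1 genes were called. The numbers share only a label: the differences between replicates 1 and 2 of the groups correlated with r 0.171 over 14208 genes, from 2 pairs. The block kept all 9 member calls.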

Other observations

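Lysosome genes, the destination of autophagosomes and targets of TFEB and its relatives, were read from a list of their own. Of 39 tested, 17 rose and 0 fell in siCNOT4 (limma adjusted p under 0.05, 26 higher and 0 lower at an unadjusted p under 0.05), against 11.3% and 1.30% of all tested genes, and the median log2 fold change was 0.72 against 0.50 for all. Of 14 genes of the proton pump V-ATPase and its accessory proteins in that list, 9 rose, with a median of 0.99. After TMM scaling 3 of the 14 rose and 0 fell, with a median of 0.44 against 0.01 for all tested genes. *ATP6V1C1* had 18.1 and 12.1 TPM in siControl and 59.3 and 60.5 TPM in siCNOT4 (1.94, SE 0.26, limma adjusted p 0.0234). *NPC1*, the cholesterol exporter, had 31.2 and 14.4 against 58.7 and 61.7 TPM (1.46, limma adjusted p 0.0499), and *ATP6V0A1* had 28.8 and 17.0 against 56.7 and 65.9 TPM (1.42, limma adjusted p 0.0393). After TMM scaling 4 genes of the list rose and 1 fell, against backgrounds of 4.45% and 4.33%. After quantile normalization 13 rose and 1 fell, against 7.11% and 8.23%. With length and GC trends removed 19 rose and 3 fell, against 11.9% and 13.5%. Most calls of the list were lost when either siCNOT4 library was left out. More were made when either siControl library was left out, and both held for all tested genes too.

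The CLEAR core TCACGTGA was in 6 of the 27 promoters found for the lysosome list (22.2%), against 1.04% of all promoters. Of these 6 genes, *ATP6V0D1*, *CTSA* and *LAMP1* (0.88, limma adjusted p 0.0499) rose, against 17 of 39 tested genes in the whole list. *MCOLN1* (0.95, limma adjusted p 0.0808), *ATP6V1G1* (0.50, limma adjusted p 0.126) and *GAA* (0.31, limma adjusted p 0.310) did not pass the test. The list holds genes described above as targets of TFEB, which binds this element. The excess of the core is thus no test and does not bear on siCNOT4. Promoters of 2 genes that rose are shown with the core in capitals: *ATP6V0D1* (chr16:67481108-67481407, minus strand, GRCh38.p14), with 51.2 and 48.2 against 99.7 and 115 TPM (1.09, limma adjusted p 0.0270), and *CTSA* (chr20:45891085-45891384, plus strand), with 44.1 and 41.2 against 82.3 and 91.3 TPM (1.01, limma adjusted p 0.0309). These genes were chosen after their values were seen.
ATP6V0D1: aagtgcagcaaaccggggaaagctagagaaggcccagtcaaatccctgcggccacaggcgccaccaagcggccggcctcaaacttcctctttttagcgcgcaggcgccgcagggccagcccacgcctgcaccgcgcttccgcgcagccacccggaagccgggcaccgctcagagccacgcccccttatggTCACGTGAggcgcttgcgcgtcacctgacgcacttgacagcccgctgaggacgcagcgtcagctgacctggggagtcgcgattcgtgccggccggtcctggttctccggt
CTSA: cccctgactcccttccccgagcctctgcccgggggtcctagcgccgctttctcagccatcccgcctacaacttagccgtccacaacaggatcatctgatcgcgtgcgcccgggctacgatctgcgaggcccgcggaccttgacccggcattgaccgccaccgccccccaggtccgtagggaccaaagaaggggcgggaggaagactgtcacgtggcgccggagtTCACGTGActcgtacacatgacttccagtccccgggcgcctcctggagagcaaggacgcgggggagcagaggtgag
The core starts at base 191 of the first run and base 225 of the second. *TFE3* and *MITF*, the relatives of TFEB in the list, had fold changes of 0.50 and 1.13 and did not pass the test (limma adjusted p 0.132 and 0.0564).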
